A study of Mus musculus with 16 samples.

Results

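Keratins are the filament proteins of epithelial cells, and 10 of their genes were followed here through sorted cells of the mouse thymus: Krt5, Krt6a, Krt8, Krt10, Krt14, Krt16, Krt17, Krt18, Krt19 and Krt20. They were taken as the probe sets to which the platform annotation gives 1 of these symbols, which made 16 of the 12488 probe sets on the array. A probe set is a group of short probes that reads 1 transcript. The rule reads gene names and no measured value, although the genes were listed with earlier results of these data known. Of the 16 probe sets, 12 were bright enough to be tested, for 8 of the 10 genes.

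Total RNA had been hybridised to 16 oligonucleotide arrays in 8 groups of 2, and the deposited values are linear signal intensities. Medullary thymic epithelial cells (mTEC) were sorted by flow cytometry into fractions with much (CD80hi) and little (CD80lo) CD80 on their surface. CD80 is a costimulatory ligand, and mature mTEC carry more of it. This was done in wild-type mice and in mice labelled AIRE knockout. Aire is a transcriptional regulator that lets mTEC express genes of other tissues. The other 4 groups were all wild type: mTEC not split by CD80, epithelial cells of the cortex (cTEC), dendritic cells (tDC) and macrophages (tMPh) of the thymus, abbreviated as in the titles. The labels give no strain, age, knockout allele or number of animals, and do not say if both samples of a group stem from different animals, so that p-values measure only the spread between these samples, which may be technical. In whole sorted populations, fewer cells of a type and less RNA per cell cannot be told apart.

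Keratins form filaments only as pairs of 1 acidic (type I) and 1 basic (type II) protein. Krt8 with Krt18, joined by Krt19 and Krt20, is the set of simple, single-layered epithelia. Krt5 with Krt14 marks basal cells of layered epithelia, Krt10 marks cells that have left the basal layer, and Krt6a, Krt16 and Krt17 are induced in stressed, wounded or rapidly renewing epidermis and in skin appendages. In the thymus, antibodies to Krt8 and Krt18 are widely used for the cortex, and antibodies to Krt5 and Krt14 for the medulla, where some cells also make keratins of cornified skin.

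The labels were first set against markers. The Aire probe set read 1829 and 1705 in wild-type CD80hi mTEC (here and below, the signals of sample 1 and sample 2, in this order) and 1589 and 1385 in the CD80hi mTEC labelled knockout. The difference was -0.25 ± 0.51 on the log2 scale (SE from limma, adjusted p = 0.977). Where this probe set lies relative to the disrupted part of the allele is not given, so it does not check the genotype, and the groups are called by their label. Epcam, a surface protein of epithelial cells, read 118 to 413 in the 10 mTEC arrays, 89.6 and 55.6 in cTEC, and 8.10 to 23.6 in tDC and tMPh. The 12 measured markers of thymic epithelium summed to 3032 in tMPh sample 1 and 808 in tMPh sample 2, and those of macrophages to 15231 and 27684, so that this pair of arrays differed in both. In cTEC, 12 thymocyte markers summed to 4127 and 7787, against 422 and 452 in mTEC.

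RefSeq promoter sequences (build GRCm38.p6) were at hand for 6 of the 10 genes. The 250 bases before the transcript start are shown, 5′ to 3′ in the direction of transcription, for Krt10 and Krt20, which were both higher in CD80hi mTEC, and for Krt8 and Krt18, a filament pair that was bright in every epithelial group. Capitals mark the TATA box letters TATAAA, searched on both strands. The windows were chr11:99389365-99389614 (minus strand) for Krt10, chr11:99438154-99438403 (minus strand) for Krt20, chr15:102004343-102004592 (minus strand) for Krt8 and chr15:102027966-102028215 (plus strand) for Krt18.
Krt10: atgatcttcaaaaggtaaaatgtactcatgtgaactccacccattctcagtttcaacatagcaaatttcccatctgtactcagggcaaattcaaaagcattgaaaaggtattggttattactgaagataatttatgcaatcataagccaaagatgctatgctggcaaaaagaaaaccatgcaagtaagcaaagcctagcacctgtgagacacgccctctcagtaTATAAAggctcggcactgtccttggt
Krt20: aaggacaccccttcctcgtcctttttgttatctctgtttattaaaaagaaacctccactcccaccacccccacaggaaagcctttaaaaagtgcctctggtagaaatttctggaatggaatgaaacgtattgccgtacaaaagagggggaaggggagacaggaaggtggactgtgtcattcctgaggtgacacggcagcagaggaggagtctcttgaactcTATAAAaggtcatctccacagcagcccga
Krt8: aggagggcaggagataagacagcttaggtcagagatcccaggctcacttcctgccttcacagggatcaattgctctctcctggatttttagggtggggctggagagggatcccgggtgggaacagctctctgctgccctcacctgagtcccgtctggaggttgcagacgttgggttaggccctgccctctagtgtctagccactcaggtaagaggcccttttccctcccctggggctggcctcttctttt
Krt18: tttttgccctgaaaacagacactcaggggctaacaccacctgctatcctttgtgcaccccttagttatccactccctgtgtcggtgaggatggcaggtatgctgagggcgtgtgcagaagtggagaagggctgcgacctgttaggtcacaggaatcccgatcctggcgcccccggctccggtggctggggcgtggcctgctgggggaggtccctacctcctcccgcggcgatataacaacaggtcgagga
TATAAA began 26 bases before the start of Krt10 and 29 before that of Krt20, and was not found in the windows of Krt5, Krt8, Krt14 and Krt18. It was present in 12.4% of the 32851 promoter windows of the same length. A CDX motif, TTTATG, was found 120 bases before the start of Krt10, and in 10.8% of all windows. An AP-2 motif, GCCNNNGGC, was found 83 bases before the start of Krt18, and in 13.7% of all windows. A match describes the letters of the window only.

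Krt8, the type II keratin of simple epithelia, was bright in all epithelial groups. Its signal was 2456 and 2247 in wild-type CD80lo mTEC, 2522 and 1977 in wild-type CD80hi mTEC, 5085 and 3115 in CD80lo mTEC labelled knockout, and 3675 and 2307 in CD80hi mTEC labelled knockout. It was 2033 and 2308 in unsplit mTEC and 1846 and 2938 in cTEC. These 6 groups, ordered by mean, each overlapped the next, though the highest, CD80lo labelled knockout, did not overlap wild-type CD80lo. Below them stood tMPh, at 1213 and 172, and tDC, at 59.8 and 22.0.

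Krt18, the type I partner of Krt8, did not follow it exactly among the epithelial groups. It read 1519 and 1318 in wild-type CD80lo mTEC against 868 and 642 in wild-type CD80hi mTEC. It read 2005 and 1819 in CD80lo mTEC labelled knockout against 906 and 669 in the matching CD80hi fraction. The 2 fractions did not overlap in either genotype, but the log2 difference of -0.92 ± 0.81 in wild type missed the threshold (limma, adjusted p = 0.599). As for Krt8 and Krt17, the SE of Krt18 rests on 1 spread over all 8 groups, among them the widely split tMPh pair (733 and 46.4). In cTEC the signals were 1594 and 1537, above unsplit mTEC at 1063 and 449, and the log2 difference of mTEC from cTEC, -1.17 ± 0.81, also missed it (adjusted p = 0.427). The widest gap was to tDC, where Krt18 read 12.0 and 9.0.

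Krt17, a type I keratin of skin appendages and wounded epidermis, was bright in the epithelial groups too. Its brightest probe set read 2448 and 1589 in wild-type CD80lo mTEC, 1483 and 1019.8 in wild-type CD80hi mTEC, 3358 and 1902 in CD80lo mTEC labelled knockout, and 1669.6 and 893 in CD80hi mTEC labelled knockout. It read 1861 and 1063 in unsplit mTEC and 1083 and 543 in cTEC, and each of these 6 groups overlapped the next in order of mean. It read 347 and 24.5 in tMPh and 4.10 and 3.80 in tDC. A second probe set was likewise bright in the epithelial groups and dim in tDC, with 912 and 454 in cTEC and 10.8 and 3.20 in tDC. The third ranged only from 16.9 to 82.5 over all arrays and was called in no comparison, so the probe sets of Krt17 disagree. The suffix of the brightest one marks probes shared with similar genes, and its signal may include them.

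**Figure D1:**
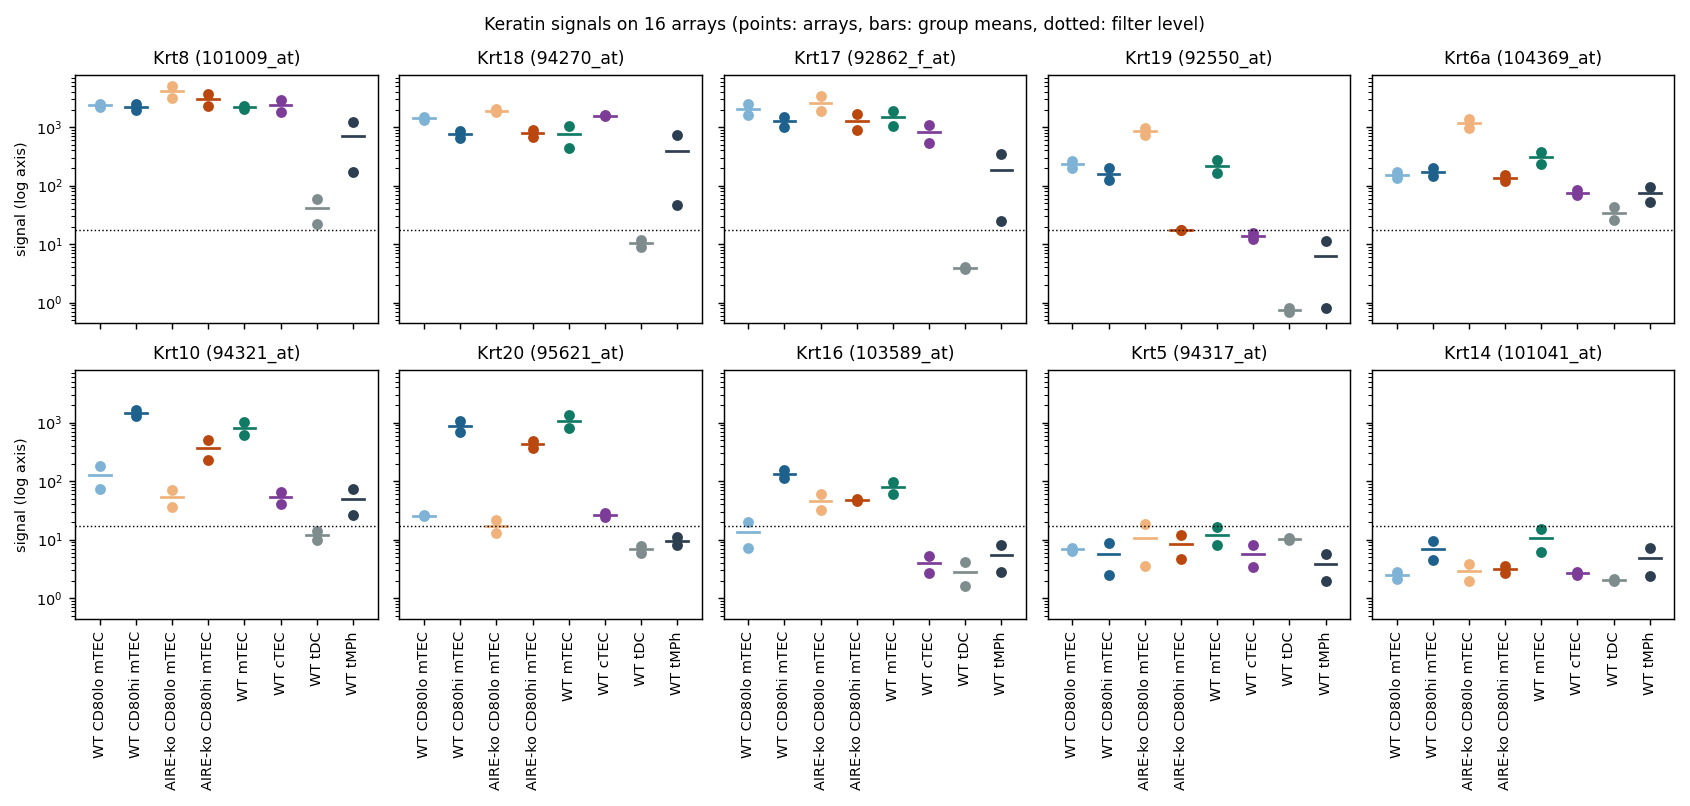
Signal of the brightest probe set of each keratin gene in each of the 16 arrays, by group, on a log axis; each point is 1 array, bars are group means and the dotted line is the limit of 17.3 for testing. Krt8 lies at 1846 or above in all epithelial arrays, while Krt10 and Krt20 are highest in the wild-type CD80hi and unsplit mTEC arrays. In CD80hi labelled knockout Krt10 reads 231 and 502 and Krt20 reads 366 and 492. Both genes are lower in CD80lo mTEC and cTEC.

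Krt5 and Krt14, the basal cell pair, were near the lower end of the signal range in all groups. The Krt5 probe set ranged from 2.0 to 18.2 over the 16 arrays, where 9.6% to 37.7% of all probe sets on the same array were dimmer, and passed the limit of 17.3 on 1 array. The Krt14 probe set ranged from 2.0 to 15.1, with 9.5% to 32.5% dimmer. Neither was tested, so these probe sets give no comparison of the medulla with the cortex for this pair. Second probe sets of Krt10 (0.40 to 7.70) and Krt18 (0.10 to 7.20) were also too dim to test.

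The comparison of the CD80 fractions in wild-type mice asks how keratin RNA differs between mTEC with much and with little CD80. Of the 12 tested keratin probe sets 3 were higher in CD80hi, none was lower and 9 did not pass, with a median log2 difference of 0.05 against -0.04 over all probe sets. Of all 9319 tested probe sets, 12.7% passed (7.98% higher and 4.74% lower). The 3 were Krt20, Krt10 and Krt16. When only these 2 groups were fitted, the same 3 passed and 1 keratin probe set was called lower, among 2456 of all 9319 that passed.

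Krt20, the keratin of differentiated intestinal cells and of the urothelial surface, was the most changed. It read 24.9 and 26.7 in CD80lo and 689 and 1078 in CD80hi mTEC. The fraction difference was 4.82 ± 0.35 on the log2 scale (limma, adjusted p = 3.35e-06). Both CD80hi arrays lay far above both CD80lo arrays.

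Krt10, the type I keratin of suprabasal epidermis, read 179 and 72.9 in CD80lo and 1623 and 1308 in CD80hi mTEC, a log2 difference of 3.61 ± 0.54 (adjusted p = 0.000461). Krt16, a type I keratin of wounded and hyperproliferative epidermis, read 20 and 7.10 against 154 and 115, a log2 difference of 3.01 ± 0.45 (adjusted p = 0.000453). Neither gene's fractions overlapped. All 3 calls held in each of the 13 other fits run. In the fit over all 8 groups Krt8 and Krt17 gave no call: the log2 difference was -0.07 ± 0.67 for Krt8, and it was -0.68 ± 0.81 for Krt17.

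Markers of other cells moved with the sort. The 10 fibroblast markers summed to 2889 and 2715 in wild-type CD80lo and 859 and 834 in CD80hi, and 6 general haematopoietic markers to 1764 and 1629.6 in CD80lo and 5336 and 5587 in CD80hi. Their part in the keratin differences was not tested.

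The same fractions of the mice labelled knockout shared some of this and differed in other genes. Of the 12 probe sets, 2 were higher and 4 lower in CD80hi, 6 did not pass, and the median log2 difference was -1.12 against -0.03 over all probe sets, of which 12.8% passed (5.93% higher and 6.87% lower). Krt20 read 21.5 and 12.9 in CD80lo and 366 and 492 in CD80hi, a log2 difference of 4.31 ± 0.35 (limma, adjusted p = 6.48e-06). Krt10 read 36.7 and 70.2 against 231 and 502, a log2 difference of 2.63 ± 0.54 (adjusted p = 0.00452). The Krt10 call was lost without sample 2 of the CD80hi or sample 1 of the CD80lo group, with an adjusted p of up to 0.0675. Krt16 read 59.5 and 32.3 in CD80lo and 46.4 and 49.2 in CD80hi, where the groups overlapped (log2 difference 0.11 ± 0.45, adjusted p = 0.929).

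The 4 lower probe sets were those of Krt19 and Krt6a. Krt19, a small type I keratin of simple epithelia and ducts, read 949 and 741 in CD80lo mTEC labelled knockout and 17.5 and 17.5 in CD80hi. That difference was -5.24 ± 0.45 on the log2 scale (limma, adjusted p = 9.74e-06), and its second, dimmer probe set gave -2.85 ± 0.39 (adjusted p = 0.000233). The suffix of this dimmer Krt19 probe set, here and below, marks probes shared with similar genes. It ranged from 0.5 to 48.1 and was above 17.3 on 5 arrays. Krt6a, a type II keratin induced in wounded and renewing epidermis, read 1392 and 968 in CD80lo and 121 and 153 in CD80hi. Its log2 difference was -3.05 ± 0.38 (adjusted p = 0.000133), and that of a second probe set was -2.90 ± 0.46 (adjusted p = 0.00072). In the wild type, the log2 differences between fractions were -0.54 ± 0.45 for Krt19 and 0.17 ± 0.38 for Krt6a, and neither passed. As in wild type, the fibroblast sum was higher in CD80lo labelled knockout (4024 and 3382) than in CD80hi (1339 and 1186), and the haematopoietic sum was lower (2015 and 1378 against 6088 and 5708); their part was not tested.

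**Figure D2:**
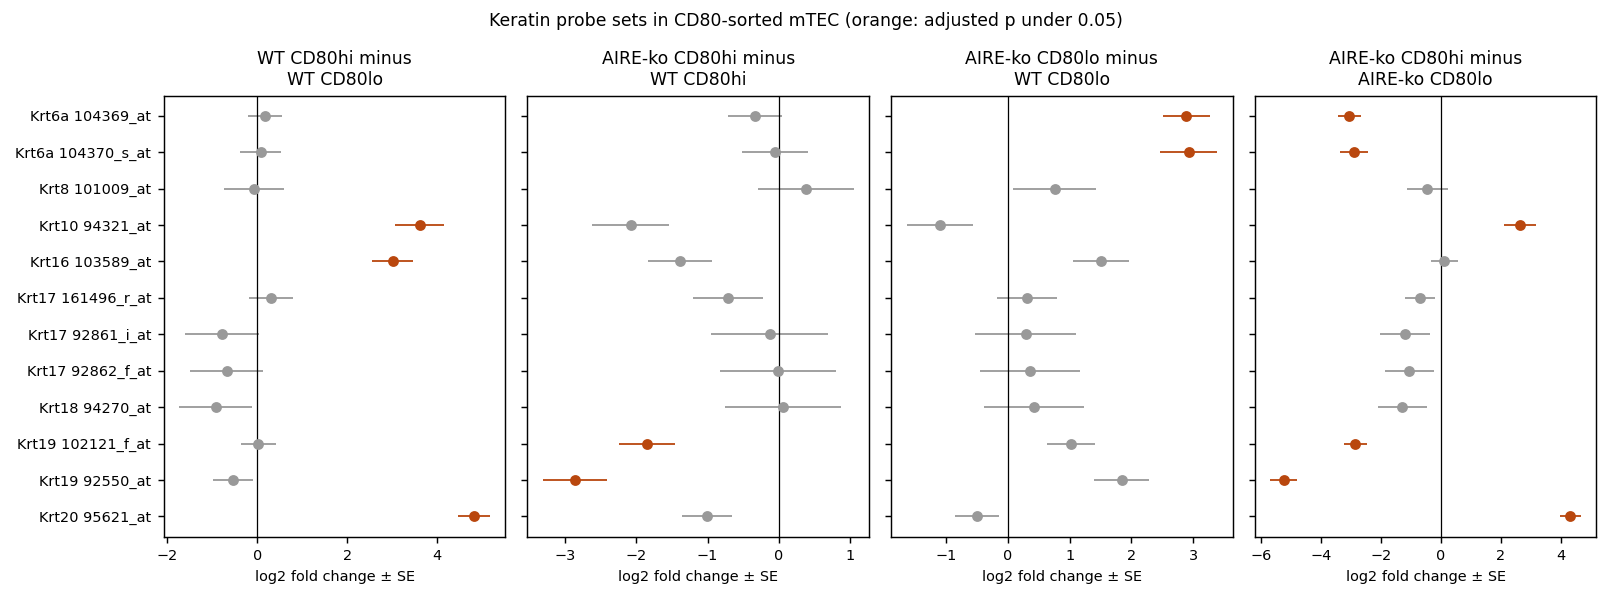
Log2 difference of each tested keratin probe set, with its standard error as a bar, in 4 comparisons of CD80-sorted mTEC; orange marks an adjusted p under 0.05, grey the rest. Krt20 and Krt10 are higher in CD80hi in both genotypes, Krt16 passes in wild type, and Krt19 and Krt6a are lower in CD80hi of the mice labelled knockout.

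Genotype was then compared within each fraction. In CD80hi mTEC, 2 of 12 keratin probe sets were lower in the samples labelled knockout and none was higher, with a median log2 difference of -0.52 against -0.05 over all probe sets. In this comparison 3.05% of all probe sets passed (0.172% higher and 2.88% lower). Both were probe sets of Krt19. It read 198 and 124 in wild type and 17.5 and 17.5 in the samples labelled knockout, so the groups did not overlap, and the log2 difference was -2.86 ± 0.45 (limma, adjusted p = 0.00259). Without wild-type sample 1 the adjusted p was 0.0554. The dimmer probe set read 13.3 and 25.0 against 2.10 and 1.20, a log2 difference of -1.85 ± 0.39 (adjusted p = 0.0154). Its call was lost with only the 2 groups compared and without sample 1 of both knockout groups. It was also lost without either sample labelled knockout or without wild-type sample 2.

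The 3 keratins that were higher in wild-type CD80hi did not pass between genotypes. The log2 differences in CD80hi were -2.08 ± 0.54 for Krt10 (adjusted p = 0.0548), -1.39 ± 0.45 for Krt16 (adjusted p = 0.147) and -1.01 ± 0.35 for Krt20 (adjusted p = 0.203). Krt8 (0.38 ± 0.67), Krt18 (0.06 ± 0.81) and Krt17 (-0.01 ± 0.81) did not pass either, and their groups overlapped. The standard errors, which include the spread of the unlike tMPh pair, leave room for changes of over 1 log2 unit in these 3 genes.

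In CD80lo mTEC the direction turned. Of 12 probe sets 2 were higher in the samples labelled knockout and none lower, with a median log2 difference of 0.60 against -0.05 over all probe sets, of which 0.322% passed (0.279% higher and 0.0429% lower). Both were probe sets of Krt6a. The brighter read 169 and 137 in wild type and 1392 and 968 in the samples labelled knockout, a log2 difference of 2.89 ± 0.38 (limma, adjusted p = 0.00248). The other read 33.5 and 34.7 against 450.5 and 188, a log2 difference of 2.93 ± 0.46 (adjusted p = 0.0092). The first call was lost without wild-type sample 2 or without sample 1 of both knockout groups (adjusted p of up to 0.0758). The second was also lost with only the 2 groups compared, and without wild-type sample 1 or sample 1 of the CD80lo group labelled knockout. Krt6a has a near-identical neighbour, Krt6b, and the suffix of the dimmer probe set marks probes shared with similar genes.

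Krt19 read 267 and 199 in wild-type CD80lo and 949 and 741 in CD80lo labelled knockout, without overlap, but its log2 difference of 1.84 ± 0.45 did not pass (adjusted p = 0.154). Krt16 (1.51 ± 0.45, adjusted p = 0.36) and Krt10 (-1.10 ± 0.54, adjusted p = 0.937) did not pass either.

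The interaction tests whether the CD80hi minus CD80lo difference itself differed between genotypes. It passed in 5 of the 12 keratin probe sets, all lower in the mice labelled knockout, while 1.3% of all probe sets passed, also all lower (0% higher). For Krt19 the difference of differences was -4.70 ± 0.64 on the log2 scale (limma, adjusted p = 0.00264) and this held in all 18 other fits. The dimmer Krt19 probe set gave -2.87 ± 0.55 (adjusted p = 0.0193) and lost its call in 7 of 17 other fits, among them those without sample 2 of the CD80hi or sample 1 of the CD80lo group labelled knockout or sample 2 of either wild-type group. For Krt6a it was -3.22 ± 0.54 (adjusted p = 0.00777), lost without wild-type CD80hi sample 1, wild-type CD80lo sample 2 or sample 1 of both knockout groups (up to 0.129). The second Krt6a probe set gave -2.98 ± 0.64 (adjusted p = 0.0413) and Krt16 gave -2.90 ± 0.63 (adjusted p = 0.0427). Each of these 2 lost its call in 11 of 18 other fits, among them those without any 1 of the 4 CD80hi arrays, without sample 1 of CD80lo labelled knockout or without wild-type CD80lo sample 2. Krt20 (-0.51 ± 0.50) and Krt10 (-0.98 ± 0.76) did not pass.

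**Figure D3:**
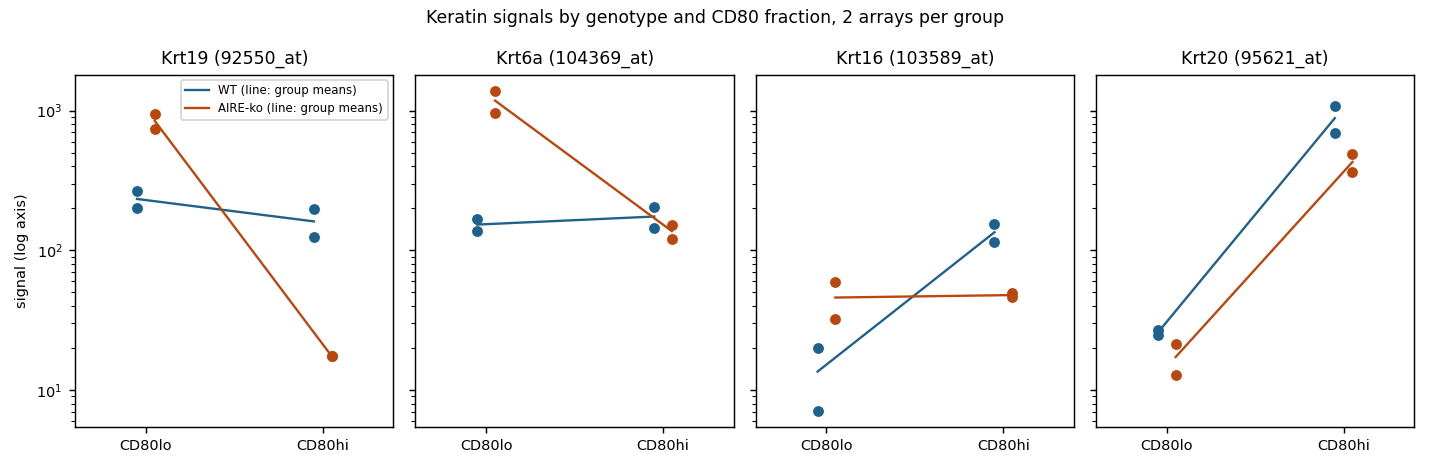
Signal of Krt19, Krt6a, Krt16 and Krt20 on a log axis in CD80lo and CD80hi mTEC of wild-type mice (blue) and mice labelled AIRE knockout (orange); points are arrays and lines join group means. Krt19 and Krt6a drop from CD80lo to CD80hi in the samples labelled knockout, to 17.5 for both Krt19 arrays, while the lines of Krt20 climb in both genotypes.

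The unsplit wild-type groups compare the epithelium of medulla and cortex, and both with antigen-presenting cells of bone marrow origin. Against cTEC, 7 of 12 keratin probe sets were higher in mTEC, none was lower and the median log2 difference was 1.92 against -0.03 over all probe sets, of which 15.4% passed (11.1% higher and 4.25% lower). Krt20 read 1334 and 813 in mTEC and 24.4 and 28.0 in cTEC, a log2 difference of 5.08 ± 0.35 (limma, adjusted p = 2.13e-06). Krt10 read 1022 and 620.0 against 41.1 and 65.5, a log2 difference of 3.82 ± 0.54 (adjusted p = 0.000206). Neither gene's arrays overlapped between mTEC and cTEC.

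Krt19 read 270.4 and 162 in mTEC and 15.7 and 12.4 in cTEC, a log2 difference of 3.51 ± 0.45 (adjusted p = 9.37e-05). Krt16 read 97.1 and 59.7 against 2.70 and 5.30, a log2 difference of 3.22 ± 0.45 (adjusted p = 0.000186). Krt6a read 373 and 237 against 68.3 and 83.2, a log2 difference of 1.91 ± 0.38 (adjusted p = 0.00283). None of these groups overlapped, and the 7 calls held when each array of the pair of groups was left out. Krt8 (-0.10 ± 0.67) and Krt17 (0.87 ± 0.81) did not pass. The thymocyte markers that were higher in cTEC, given above, moved with this comparison, and their part was not tested.

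In the brightest probe set of each of the 8 tested genes, tDC had the lowest mean of the 8 groups, while dimmer probe sets of Krt6a, Krt17 and Krt19 did not follow this. Of 12 probe sets 11 were higher in mTEC, where 24.3% of all probe sets passed (16.8% higher and 7.58% lower). The log2 differences of mTEC from tDC were 7.33 ± 0.81 for Krt17, 6.49 ± 0.35 for Krt20, 5.71 ± 0.67 for Krt8, 5.58 ± 0.54 for Krt10, 5.51 ± 0.81 for Krt18 and 5.27 ± 0.45 for Krt19 (limma, largest adjusted p = 0.000172). In cTEC, 7 probe sets were higher than in tDC, where 17.7% of all passed (10.5% higher and 7.18% lower). Krt18, Krt17 and Krt8 led, at 6.69 ± 0.81 for Krt18, 6.46 ± 0.81 for Krt17 and 5.81 ± 0.67 for Krt8. Smaller differences passed for Krt10 (1.77 ± 0.54, adjusted p = 0.035), Krt19 (1.76 ± 0.45, adjusted p = 0.0132) and Krt20 (1.42 ± 0.35, adjusted p = 0.0117). Each of these 3 calls was lost without tDC sample 1 and without at least 1 cTEC sample, those of Krt10 and Krt19 also without tDC sample 2, with adjusted p values of up to 0.208. With the sample number as a block, Krt6a also passed between cTEC and tDC (1.08 ± 0.38, adjusted p = 0.0668 without the block and 0.0392 with it).

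**Figure D4:**
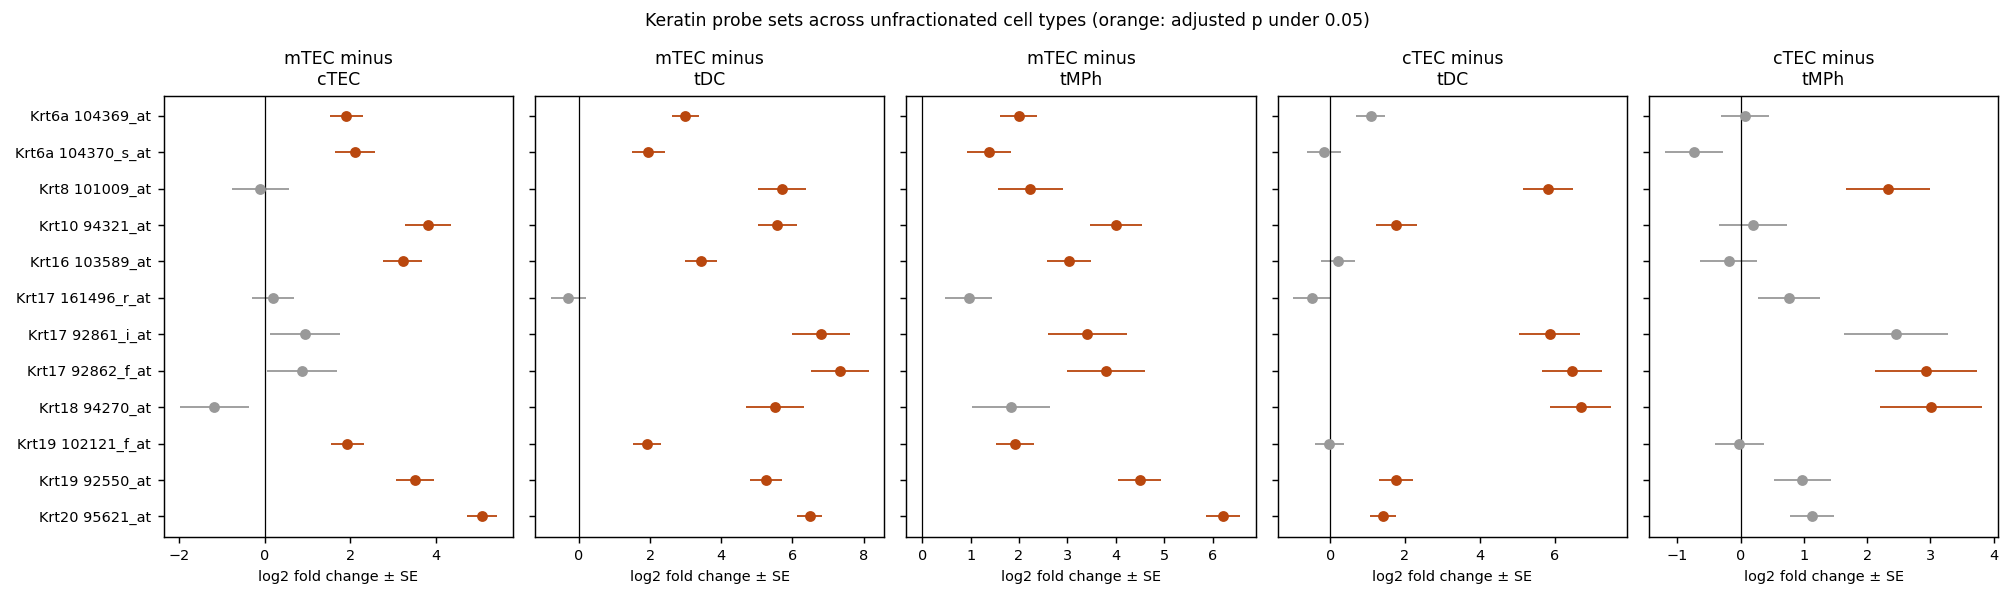
Log2 difference of each tested keratin probe set, with its standard error as a bar, in 5 comparisons of the unsplit groups; orange marks an adjusted p under 0.05, grey the rest. Krt20, Krt10, Krt19, Krt16 and Krt6a are higher in mTEC than in cTEC, where Krt8 (-0.10) and Krt18 (-1.17) do not pass, and the bright keratins Krt8, Krt17 and Krt18 lead in cTEC against tDC.

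Macrophages gave 2 unlike samples. For Krt8 sample 1 read 1213 and sample 2 172, for Krt18 733 and 46.4, and for Krt17 347 and 24.5. The thymic epithelial markers Ccl25 (1834 and 263), Pax1 (361 and 91.8) and Cxcl12 (366 and 87.6) were also higher in sample 1, as was the sum of thymocyte markers (7326 and 3099.6), whereas Epcam was low in both (9.50 and 8.80). The part of these markers in the keratin signal was not tested. Against tMPh, 10 of 12 probe sets were higher in mTEC, where 22% of all passed (14.6% higher and 7.37% lower), and 3 in cTEC, where 10.8% passed (5.94% higher and 4.87% lower).

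Krt20 (6.21 ± 0.35, adjusted p = 2.84e-07), Krt19 (4.49 ± 0.45) and Krt10 (4.01 ± 0.54) were higher in mTEC than in tMPh in every other fit. Krt17 was higher by 3.80 ± 0.81 (limma, adjusted p = 0.00321), with log2 differences of 2.41 and 5.19 within sample numbers 1 and 2. The Krt17 call was lost with only the 2 groups compared (adjusted p = 0.0631). Krt8 was higher by 2.23 ± 0.67 (limma, adjusted p = 0.0268). That call was lost with only the 2 groups compared. It was also lost without tMPh sample 2 or either mTEC sample (log2 differences of 0.83, 2.32 and 2.13). Without tMPh sample 1 it held, at 3.62 (adjusted p = 0.000197). Within sample number 1 the log2 difference of Krt8 was 0.74, and within number 2 it was 3.71. Krt18, at 1.84 ± 0.81, passed with the sample number as a block (adjusted p = 0.0412) and not without it (0.135).

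In cTEC against tMPh, Krt18 (3.01 ± 0.81, adjusted p = 0.0272), Krt17 (2.93 ± 0.81, adjusted p = 0.0309) and Krt8 (2.33 ± 0.67, adjusted p = 0.038) were higher. All 3 calls were lost with only the 2 groups compared, and without tMPh sample 2 or either cTEC sample. The Krt8 call was also lost without the filter. Within numbers 1 and 2, the log2 differences were 1.12 and 4.91 for Krt18, 1.63 and 4.22 for Krt17 and 0.60 and 4.06 for Krt8. The block raised the count to 5, adding the second Krt17 probe set (adjusted p = 0.00321) and Krt20 (adjusted p = 0.0363).

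Beyond these genes, the array held 23 of 42 other listed keratins, 22 of them tested, many of them genes of hair and epidermis. In wild-type mTEC 10 of the 22 were higher in CD80hi and none lower, with a median log2 difference of 1.08 against -0.04 over all probe sets. Of all probe sets, 7.98% were higher and 4.74% lower. The largest were Krt77, of epidermal sweat ducts (24.8 and 6.5 in CD80lo, 287 and 234 in CD80hi, 3.85 ± 0.54), and Krt83, a hair keratin (5.10 and 2.90 against 71.5 and 59.3, 3.0 ± 0.35). Both were lower in CD80hi labelled knockout than in wild-type CD80hi, with log2 differences of -2.48 ± 0.54 (limma, adjusted p = 0.0196) and -2.81 ± 0.35 (adjusted p = 0.000553). They were among 4 of 22 that were lower in this comparison, where 2.88% of all probe sets were lower. Krt83 read 5.40 and 4.90 in CD80hi labelled knockout, within the range of the CD80lo groups.

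Krt7 is the type II keratin of ducts and glands. It read 1272 and 1015 in wild-type CD80lo and 478 and 445 in CD80hi, 1311 and 1089.8 in CD80lo and 263 and 243 in CD80hi labelled knockout, and 927 and 523 in cTEC. The log2 difference between fractions did not pass in wild type (-1.29 ± 0.63, adjusted p = 0.231) and passed in the mice labelled knockout (-2.22 ± 0.63, adjusted p = 0.0301), and the interaction did not pass (-0.93 ± 0.88). Krt4, of mucosal epithelia, passed the interaction (-2.64 ± 0.48, adjusted p = 0.0147), with 318 and 179 in CD80lo labelled knockout against 71.9 and 84.9 in CD80hi. Against cTEC, 12 of the 22 were higher in mTEC and none lower, where 11.1% of all probe sets were higher and 4.25% lower. The filter limit given above holds for this count too. No other keratin passed between genotypes in CD80lo, where 0.322% of all probe sets passed.

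In the mouse genome the type I keratins lie on chromosome 11, in 2 blocks with 38 protein-coding genes between them, and the type II keratins on chromosome 15, where Krt18 lies next to Krt8. Gene order was examined after the values were seen. In the first block 4 of 5 tested keratins were higher in wild-type CD80hi than in CD80lo (Krt25, Krt10, Krt12 and Krt20, but not Krt27), and Krt10, Krt12 and Krt20 are direct neighbours among the keratins there. In the second block 2 of 10 were higher (Krt13 and Krt16), and on chromosome 15 7 of 15. Of all probe sets, 7.98% were higher. Krt25, Krt27, Krt13, Krt34 and Krt83 were tested only because they were bright in wild-type CD80hi or unsplit mTEC. The filter therefore partly set these counts. No test was made of the blocks, and these counts are too small to compare them.

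**Figure D5:**
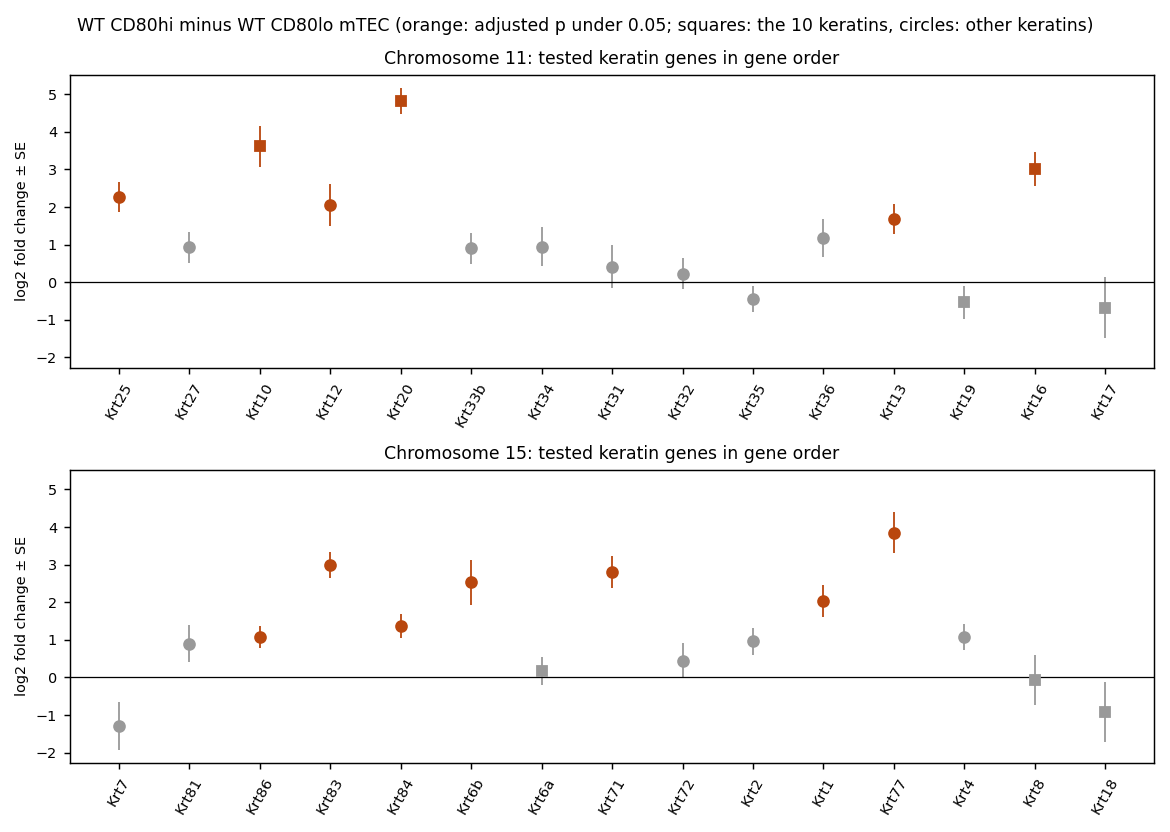
Log2 difference between wild-type CD80hi and CD80lo mTEC, with its standard error, for the tested keratin genes in their order along chromosomes 11 and 15; squares are the 10 keratins followed here, circles other keratins, and orange marks an adjusted p under 0.05. In the first chromosome 11 block 4 of 5 tested genes pass the threshold, where 12.7% of all probe sets do. Krt25, Krt27, Krt13, Krt34 and Krt83 were tested only because they were bright in wild-type CD80hi or unsplit mTEC. Krt8 and Krt18, neighbours on chromosome 15, do not pass.

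Lists of genes that act with keratins were also counted. Among 19 tested genes of desmosomes, hemidesmosomes and their adaptors, 14 were higher in cTEC than in tDC and 16 in mTEC than in tDC. None was lower. Of all probe sets, 10.5% were higher in cTEC and 16.8% in mTEC. Dsp (desmoplakin, which ties keratin to the desmosome) was higher by 6.64 ± 0.31 log2 units in cTEC and by 5.66 ± 0.31 in mTEC. In the wild-type fractions 1 was higher in CD80hi and 3 were lower, where 7.98% of all probe sets were higher and 4.74% lower. The lower genes included Lamb3 and Itgb4, which anchor basal cells to the basement membrane. Lamb3 read 823 and 463 in CD80lo and 122 and 96.2 in CD80hi (-2.46 ± 0.71, adjusted p = 0.0333), and Itgb4 538 and 487 against 131 and 81.8 (-2.25 ± 0.67, adjusted p = 0.0399). In the mice labelled knockout 5 were lower in CD80hi and none higher, where 6.87% of all probe sets were lower and 5.93% higher. Lamb3 gave -3.65 ± 0.71 (adjusted p = 0.00313). No gene of this list passed between genotypes, where 3.05% of all probe sets passed in CD80hi and 0.322% in CD80lo.

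Of 12 tested genes of other intermediate filaments, 2 were higher in wild-type CD80hi and none lower, where 7.98% of all probe sets were higher, so that the count does not set the list apart. Both are neuronal: Prph (peripherin, 3.54 ± 0.48, adjusted p = 0.000221) and Nefh (1.32 ± 0.40, adjusted p = 0.0411). In cTEC, Nefm, another neurofilament gene, read 145 and 22.5 against 2.50 and 4.80 in mTEC (mTEC minus cTEC -2.93 ± 0.69, limma, adjusted p = 0.00881). Nefm was above the limit for testing only on the cTEC arrays, so it was tested only because it was bright in cTEC. The cTEC arrays also lay far apart, and the size of the difference leans on sample 1.

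Of 17 tested epithelial regulators, 2 were higher in wild-type CD80hi and none lower, a share near that of all probe sets (7.98% higher): Tfap2c, an AP-2 factor (64.9 and 36.9 in CD80lo, 327 and 320.0 in CD80hi, 2.61 ± 0.37, adjusted p = 0.000329), and Cdx1, an intestinal factor (45.1 and 21.4 against 214 and 169, 2.43 ± 0.50, adjusted p = 0.00436). Klf5, a factor of proliferating epithelia, was the only one to pass the interaction (-2.78 ± 0.53, adjusted p = 0.0185). It read 241 and 141 in CD80lo labelled knockout, 27.5 and 19.0 in CD80hi labelled knockout, 75.7 and 49.3 in wild-type CD80lo and 70.1 and 53.7 in wild-type CD80hi. In the mice labelled knockout Hes1, a target of Notch signalling, was lower in CD80hi (-3.17 ± 0.53, adjusted p = 0.0011). None of the 17 passed between genotypes in either fraction, where 3.05% of all probe sets passed in CD80hi and 0.322% in CD80lo. In mTEC 7 were higher than in cTEC, where 11.1% of all probe sets were higher. Foxa1 (4.22 ± 0.51) and Tfap2c (3.61 ± 0.37) led.

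The order of the groups was compared between genes by Pearson's r over the 8 group means of log2 signal, as a description: the points share arrays, and epithelial against other cells sets much of each r. Among the keratins r was 0.98 for Krt8 with Krt18 and for Krt8 with Krt17, 0.96 for Krt10 with Krt20, 0.91 for Krt6a with Krt19 and 0.28 for Krt6a with Krt20. The genes that are no keratins and were most like each were Tnc (0.984) for Krt8, Cttn (0.988) and Dsp (0.986) for Krt18, C77080 (0.993), named as in the annotation, and Trp53inp2 (0.984) for Krt17 and Apoa4 (0.992) for Krt20. For Krt19 they were Igfbp3 (0.992) and Sprr2e (0.975), for Krt6a Irx3 (0.962), for Krt10 Cyp17a1 (0.981) and for Krt16 Reep6 (0.986).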

How the data were processed

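The deposited table held 1 linear intensity per probe set and array, from the authors. Which software made it is not given in the sources used here, nor a scaling step. The 2% trimmed mean was 100.1 on every array, so values were used as deposited. Replicate arrays correlated at a Pearson r of 0.896 to 0.966 over probe sets. The number of arrays limits the precision. Whether 2 groups of 2 arrays overlap is a description and no test, and its share over all probe sets was not counted.

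Control probe sets (66) and those not above 17.3 (the 40th percentile) on at least 2 arrays were left out, leaving 9319. Symbols came from the platform annotation, updated through the GRCm38.p6 gene table. Fold changes are on the scale log2(signal + 4.8), which understates those of dim genes. All comparisons were contrasts in 1 limma model (limma 3.58.1, R 4.3.3) over all 16 arrays, 2-sided, with an intensity trend. P-values were adjusted by Benjamini-Hochberg over the 9319, with a threshold of 0.05, to which higher, lower and passed refer. For lists, the brightest probe set of each gene was used.

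On simulated data for the wild-type CD80 comparison with 9319 probe sets, 18%, 72%, 94% and 96% of changes of 1, 2, 3 and 4 log2 units were recovered, and 5 of 145 calls were false. The simulated noise was independent between arrays, with a spread set by brightness alone. Fewer changes were planted than the 1186 called in the real comparison, so these rates may not carry over. Same-numbered unsplit arrays deviated together (r of 0.279 to 0.526 in all 6 pairs of groups). Arrays of the CD80hi and CD80lo groups labelled knockout also did so with tDC (0.383 and 0.371) and tMPh (0.335 and 0.355). Such an r therefore does not show that the numbers pair samples, and the labels state no pairing. Blocked values stand beside the unsplit results they change. Across genotypes, same-numbered CD80-sorted arrays had an r of 0.028 to 0.166, and their blocked values are in the closing section. Other fits varied the normalisation, constant, filter, trend, groups and block, or left out arrays. The fit without sample 1 of both knockout groups was added after seeing the data. Named genes were all probe sets of the 10 keratins, the 2 largest changes that passed in each list and the 2 genes most like each keratin. The members and lists were chosen with earlier results of these data known.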

Additional observations from a re-analysis of the deposited data

Results flagged for a closer look

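In 5 keratin probe sets the difference between CD80hi and CD80lo mTEC was itself different in the mice labelled knockout, by the interaction test in limma. The difference of differences on the log2 scale was -4.70 and -2.87 for the probe sets of Krt19, -3.22 and -2.98 for those of Krt6a and -2.90 for Krt16. Only the brighter Krt19 probe set kept its call in all 18 other fits. The dimmer one kept it in 10 of 17 and the brighter Krt6a probe set in 15 of 18. Krt16 and the second Krt6a probe set kept theirs in 7 of 18 each.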

How the results depend on the processing

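Of 56 calls on keratin probe sets, 37 held in every other fit run, and 669 of 757 such fits kept the call. No call turned its direction, and the direction of results that were not called was not followed. The number of called keratin probe sets moved by over 1.5 times as follows, and the cause was not tested. Between genotypes in CD80hi it was 2, against 4 with a constant of 17.3, 1 with the filter at 50, 1 without each array in turn and 1 without sample 1 of both knockout groups. Between genotypes in CD80lo it was 2, against 1 with only the groups compared, 0 to 2 without each array and 0 without sample 1 of both knockout groups. For the interaction it was 5, against 2 with a constant of 1, 3 without the filter, 2 with only the groups compared, 1 to 5 without each array and 1 without sample 1 of both knockout groups. For mTEC against tMPh it was 10, and 6 with only the groups compared. For cTEC against tDC it was 7, against 4 with a constant of 17.3 and 4 to 5 without each array. For cTEC against tMPh it was 3, against 0 with only the groups compared and 0 to 5 without each array.

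The replicate block raised the count for cTEC against tMPh to 5 in both of its forms. The CD80-sorted groups share only a sample number, with a Pearson r of 0.028 to 0.17 between deviations of same-numbered arrays, except 0.517 between the knockout groups. There the block within sets also called Krt10 between genotypes in CD80hi (adjusted p = 0.0442) and Krt19 in CD80lo (adjusted p = 0.0321). Besides these and the calls given with the block in the report, it changed no other call. Under quantile normalisation the median log2 difference over all probe sets shifted by over 0.1 in some unsplit comparisons, from 0.10 to -0.14 for mTEC against tDC. Probe sets near 17.3 and 2 arrays per group limit what can be called.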
